A study of Arabidopsis thaliana with 4 samples.

Results

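The nuclear genes for photosystem and light-harvesting proteins were followed in rosette leaves of Arabidopsis thaliana. They were chosen by gene family and comprised the antenna genes LHCA and LHCB, PSBS, and the nuclear genes for PSA and PSB subunits, 43 of the 33059 features in the deposited table. Leaves came from plants aged 28 days. Plants overexpressing ERF4, a transcriptional repressor of the ethylene response factor family, under the viral 35S promoter, which is active in nearly all tissues (OE, 2 libraries), were compared with wild-type plants (WT, 2 libraries). The labels do not give the ecotype, the number of independent transgenic lines, or whether a genotype's libraries came from separate plants, so a p-value here reflects spread that may be technical. ERF4 (AT3G15210) itself had 24.5 and 28.8 TPM in the OE libraries, against 9.68 and 10.6 TPM in the WT libraries. Its log2 fold change of 1.31 (SE 0.35) did not pass the threshold (limma, Benjamini-Hochberg adjusted p = 0.381). TPM is a transcript abundance corrected for length, and it sums to the same total in all 4 libraries. It holds no read numbers, so sequencing depth is unknown.

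Photosystem II splits water and photosystem I reduces ferredoxin, and both are fed by antenna proteins that bind chlorophyll a and b. The reaction centre cores are made in the chloroplast, while the antenna proteins and many peripheral subunits are encoded in the nucleus and imported. These nuclear genes are among the most strongly expressed in green leaves. Their transcripts are known to respond to light, to the circadian clock, to sugars and to signals from the chloroplast, and GLK transcription factors activate many of them.

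In these leaves the 43 genes differed far more between the libraries of a genotype than between the genotypes. Together they held 5.43% and 12.1% of all TPM in OE replicates 1 and 2, against 13.9% and 5.39% in WT replicates 1 and 2. The high libraries, OE replicate 2 and WT replicate 1, thus belonged to different genotypes, and the mean share was 8.74% ± 4.69 in OE and 9.67% ± 6.04 in WT (SD, n = 2 each). In whole leaves, fewer chlorophyll-containing cells and less of these RNAs per cell cannot be told apart. Of the 43 genes, 32 had a mean of at least 1000 TPM and 33 were among the 100 most abundant features. At the low end, LHCB1.5 was listed at 0 in every library and LHCB4.3 averaged 11.1 TPM.

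**Figure D1:**
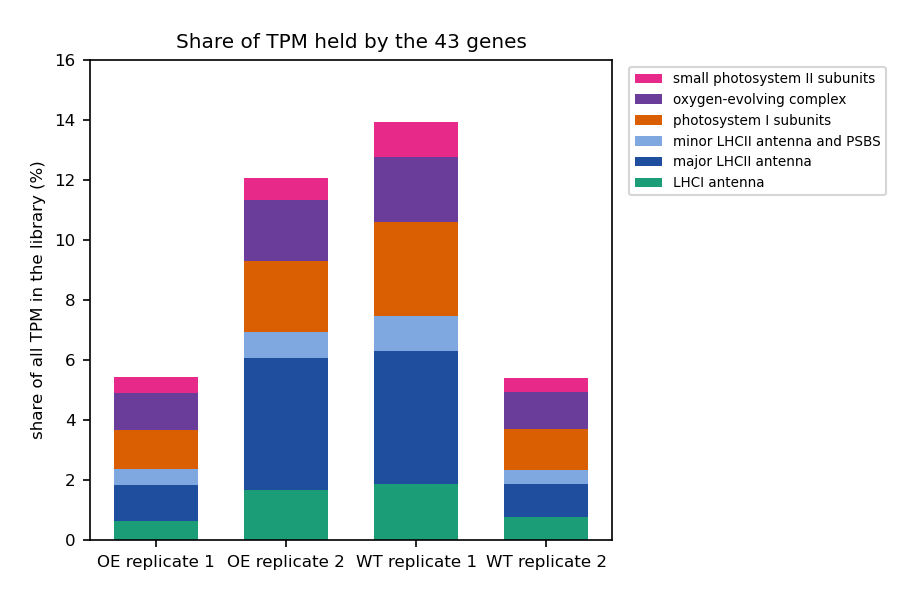
Share of all TPM in each library (%, y axis) held by the 43 genes, as stacked bars with 1 colour per role group, for OE replicates 1 and 2 and WT replicates 1 and 2. The bars reach 5.43% and 12.1% in the OE libraries and 13.9% and 5.39% in the WT libraries, and the major LHCII antenna has the widest range of any colour.

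The test of OE against WT used limma on the log2(TPM + 1) scale and covered the 20010 features whose mean reached 1 TPM. This left 42 of the 43 genes, all but LHCB1.5. None of the 42 passed a Benjamini-Hochberg adjusted p of 0.05, a threshold that 18 features (0.09%) passed in the whole table, and the adjusted p of each was 1.0. No member had an unadjusted p under 0.05 either, the smallest being 0.128 for LHCB4.3. Their median log2 fold change was -0.17, beside -0.016 over all features tested, with 14 of 42 above 0 and 28 below, where 48.3% of all features lay above 0. With quantile normalization this lean was not seen, with 21 above and 21 below 0 and a median of -0.0060. Both OE libraries lay above both WT libraries for 0 of the 42 genes, against 13.7% of all features, and below both for 1 gene, LHCB4.3, against 14.2%.

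The median depended on which library was left out. It was 0.52 without WT replicate 1, when 39 of the 42 values lay above 0, and -0.87 without WT replicate 2, when 0 did. Leaving out OE replicate 1 gave 0.30 and leaving out OE replicate 2 gave -0.58. For 41 of the 42 genes the gap between the WT libraries exceeded the gap between the genotype means, against 69.8% of all features, and for 32 the gap between the OE libraries did, against 59%. The median absolute log2 difference of the members was 1.01 between the OE libraries, 1.36 between the WT libraries and 0.19 between the genotypes, where that of all features was 0.33, 0.48 and 0.24 in the same order.

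**Figure D2:**
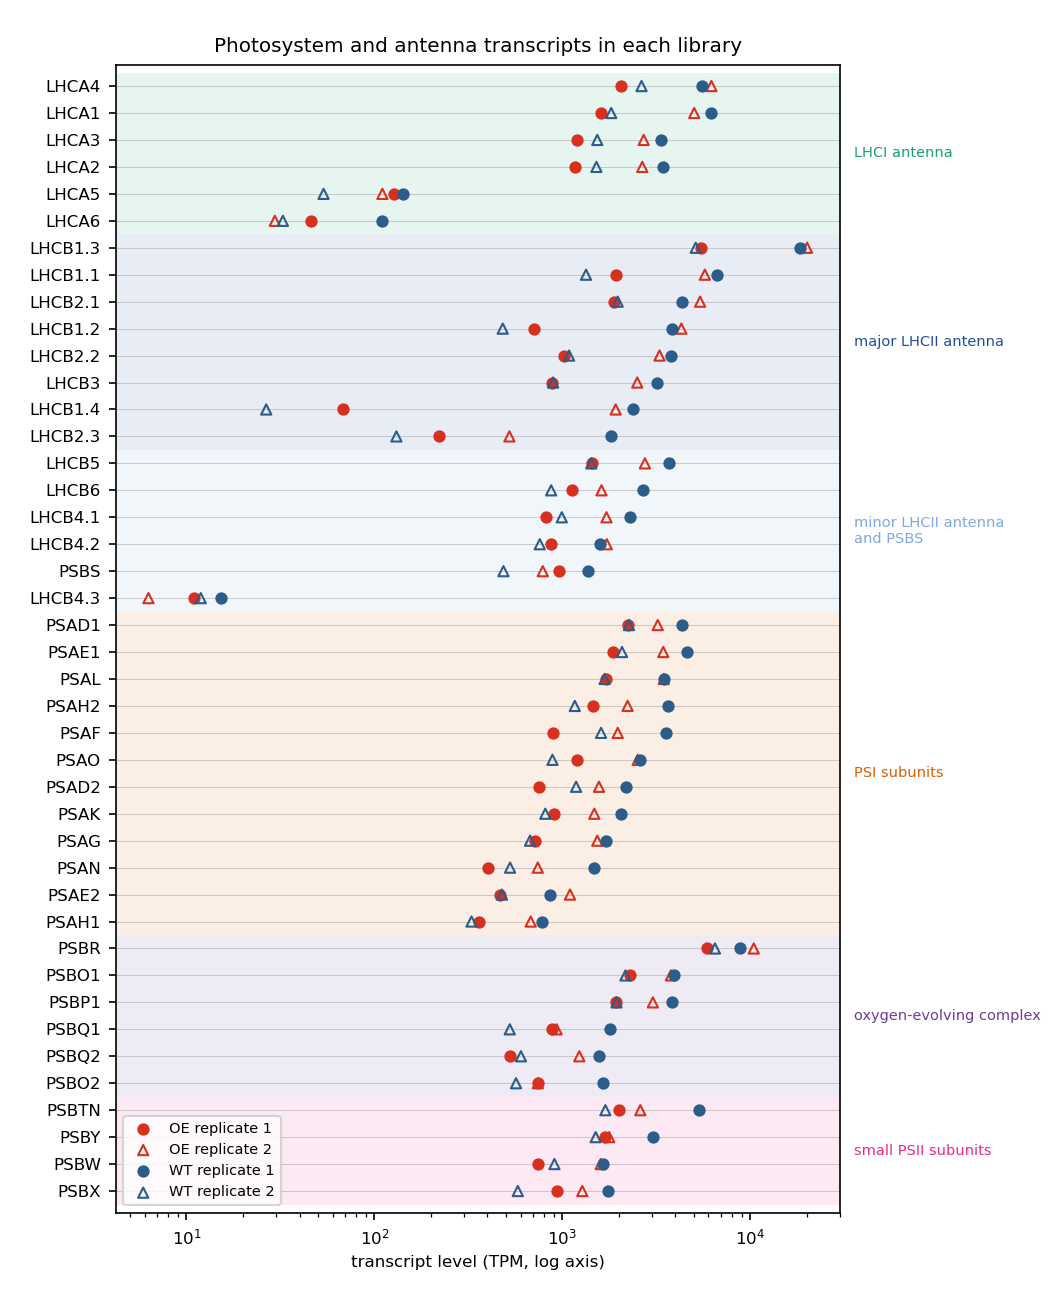
Level of each of the 42 tested genes (rows, grouped by role and shaded by group) on a log axis of TPM, with OE replicates as red symbols and WT replicates as blue symbols, filled circles for replicate 1 and open triangles for replicate 2. In most of the 42 rows the OE triangle and the WT circle lie to the right of the OE circle and the WT triangle, and LHCB4.3 alone has both OE libraries below both WT libraries.

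WT replicate 1 was above WT replicate 2 for 42 of the 42 genes, whereas 28.5% of all features tested showed that order. OE replicate 2 was above OE replicate 1 for 37 of the 42, against 36.9% of all features, and both orders held for 37, against 10.5%. The members' median log2 difference was 1.01 for OE replicate 2 minus replicate 1, where the median of all features was -0.14, and -1.36 for WT replicate 2 minus replicate 1, where the median of all features was 0.33. Only 4.38% of all features had an OE difference as high as the members' median, and 1.93% had a WT difference as low. A difference of at least 1 on the log2 scale, in either direction, was seen for 21 members between the OE libraries and for 34 between the WT libraries, against 8.81% and 14.7% of all features. These comparisons rest on single libraries and have no test.

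**Figure D3:**
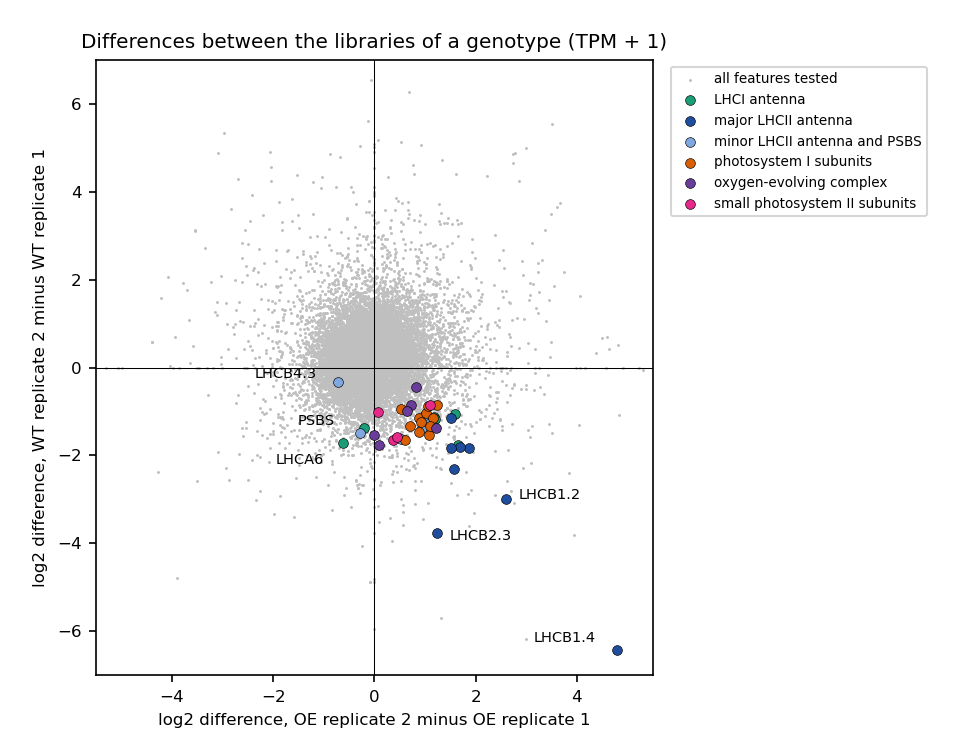
Log2 difference in TPM + 1 between OE replicates 2 and 1 (x axis) against that between WT replicates 2 and 1 (y axis), for all 20010 features tested (grey, 3 of them outside the axes) and for 42 photosystem and antenna genes (coloured by role). All 42 lie below 0 on the y axis and 37 lie above 0 on the x axis, with LHCB1.4 at 4.80 and -6.44.

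The major antenna of photosystem II, trimers of LHCB1, LHCB2 and LHCB3 proteins that collect most of its light, had the widest spread. Its 9 genes together held 1.22% and 4.38% of TPM in OE replicates 1 and 2, against 4.44% and 1.11% in WT replicates 1 and 2. LHCB1.3 (AT1G29930), the most abundant member, had 5468 and 20086 TPM in OE and 18396 and 5133 TPM in WT. The genotypes overlapped, and the log2 fold change was 0.11 (SE 1.07). LHCB1.1 had 1927 and 5740 TPM in OE, against 6630 and 1338 TPM in WT. For LHCB1.2 the values were 707 and 4304 TPM in OE and 3856 and 482 TPM in WT. Both copies were thus low in the same libraries as LHCB1.3.

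LHCB1.4 (AT2G34430) differed most of all members between libraries. It had 68.2 and 1925 TPM in OE replicates 1 and 2, a 28.2-fold ratio of the higher to the lower, and 2389 and 26.6 TPM in WT replicates 1 and 2, an 89.9-fold ratio. Among the 4 LHCB1 copies above 0 its share of the summed TPM was 0.835% and 6.0% in the OE libraries, against 7.64% and 0.381% in the WT libraries. The sum of the copies changed less, 3.92-fold between the OE libraries and 4.48-fold between the WT libraries. Its log2 fold change between genotypes was 0.51 with an SE of 1.79, the largest SE in the plot of fold changes. By mean TPM LHCB1.4 was lower in OE, at 996 TPM against 1208 TPM in WT, so the sign depended on the scale. The same held for LHCA4, LHCB1.1, PSBS, PSBO1 and PSBX, whose log2 fold changes and differences in mean TPM had opposite signs.

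LHCB2.3 (AT3G27690) set WT replicate 1 apart. It had 222 and 524 TPM in OE, against 1808 and 131 TPM in WT, which is 18.2% of the LHCB2 sum in WT replicate 1 and 4.11% to 7.09% in the other libraries. LHCB2.1 had 1886 and 5416 TPM in OE and 4349 and 1974 TPM in WT, and LHCB2.2 had 1017 and 3294 TPM in OE and 3790 and 1087 TPM in WT. LHCB3, the third component of some trimers, had 878 and 2507 TPM in OE, against 3193 and 894 TPM in WT. Across this group the log2 fold change ran from -0.52 for LHCB2.3 to 0.51 for LHCB1.4, with a median of 0.12.

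**Figure D4:**
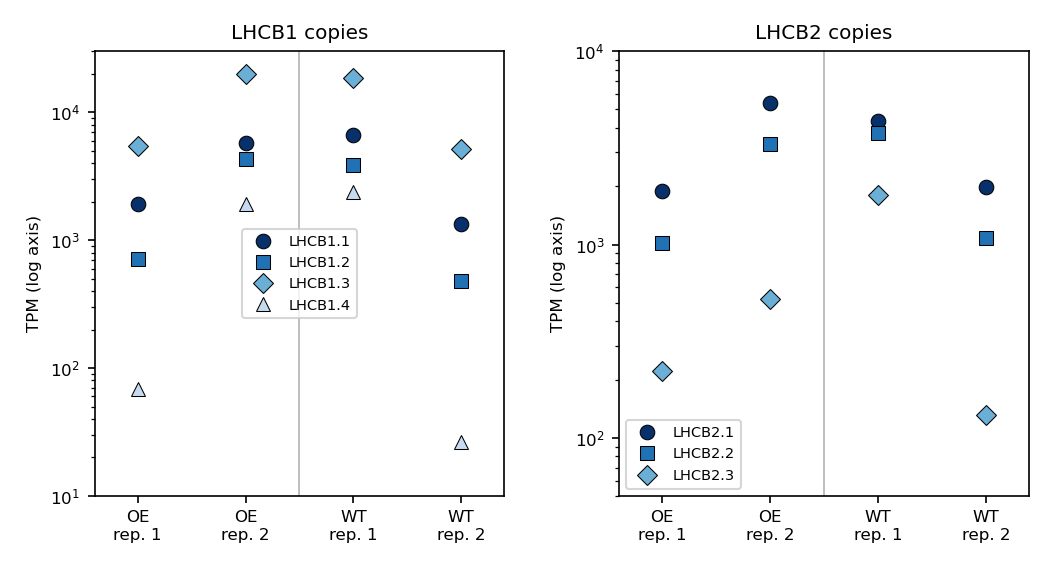
Levels of the LHCB1 copies (left) and LHCB2 copies (right) in TPM on a log axis, with 1 symbol per copy and the OE libraries to the left of the grey line. LHCB1.4 spans 26.6 to 2389 TPM while LHCB1.3 spans 5133 to 20086 TPM, and LHCB2.3 is nearest to the other LHCB2 copies in WT replicate 1.

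Copies of LHCB1 are alike enough that reads can be shared between them. LHCB1.1, LHCB1.2 and LHCB1.3 lie in a cluster on chromosome 1, and their coding sequences in the RefSeq annotation of TAIR10.1 were 95.6% to 96.4% identical. LHCB1.4 and LHCB1.5 lie next to each other on chromosome 2 and were 91.4% identical to each other. LHCB1.4 was less like the chromosome 1 copies, at 86.8% to 88.2% identity. The authors' genome build is not given in the sources used here, so positions are those of RefSeq TAIR10.1. The last 60 coding bases show how few bases separate the copies. They are given on the coding strand, with bases that differ from LHCB1.3 in capitals.
LHCB1.1 (chr1:10475089-10475148, minus strand): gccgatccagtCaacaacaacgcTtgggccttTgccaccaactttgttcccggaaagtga
LHCB1.2 (chr1:10472443-10472502, minus strand): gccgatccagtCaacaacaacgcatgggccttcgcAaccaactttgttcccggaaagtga
LHCB1.3 (chr1:10478815-10478874, plus strand): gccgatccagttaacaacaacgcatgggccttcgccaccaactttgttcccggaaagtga
LHCB1.4 (chr2:14525559-14525618, plus strand): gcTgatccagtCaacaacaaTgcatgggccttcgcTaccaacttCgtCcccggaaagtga
LHCB1.5 (chr2:14522716-14522775, minus strand): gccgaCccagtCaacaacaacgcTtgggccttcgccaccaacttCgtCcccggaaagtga
In this window LHCB1.1 differed from LHCB1.3 at 3 bases, LHCB1.2 at 2, LHCB1.4 at 6 and LHCB1.5 at 5. The values of single LHCB1 copies are therefore uncertain. The sum of the copies, with LHCB1.5 counted at its listed 0, was 8171 and 32054 TPM in OE, against 31272 and 6981 TPM in WT.

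LHCB1.5 (AT2G34420) was listed at 0 in every library, which can be a failed estimate, and the LHCB1 sums share this uncertainty. An annotated antisense RNA, AT2G08665, covers 100% of its length on the opposite strand and was listed at 3043 and 14820 TPM in OE and at 7667 and 4884 TPM in WT. PSAG (AT1G55670) is overlapped over 61.4% of its length by AT1G55673, annotated as protein-coding on the opposite strand. That gene had 4342 and 8259 TPM in OE and 8856 and 5497 TPM in WT. PSAG itself was listed at 717 and 1537 TPM in OE, against 1701 and 674 TPM in WT. PSAE1 is overlapped over 33.4% of its length by AT4G28755, also annotated as protein-coding, at 835 and 1539 TPM in OE and 2034 and 1052 TPM in WT. Counting by strand is not stated in the sources used here, and without it reads of a gene and of its opposite-strand partner cannot be told apart. The levels of LHCB1.5, PSAG and PSAE1 are uncertain for this reason. In RefSeq 16 of the 43 genes overlap a gene on the opposite strand. The partner of PSAH1 was listed at 0 and that of LHCB2.3 had 7.13 to 11.1 TPM, and apart from LHCB1.5 only PSAG lay below a partner in every library.

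The antenna of photosystem I is a belt of LHCA1 to LHCA4, while LHCA5 and LHCA6 are scarce linkers between photosystem I and the NADH dehydrogenase-like complex. LHCA4, the most abundant, had 2060 and 6220 TPM in OE, against 5517 and 2642 TPM in WT, with a log2 fold change of -0.093 (SE 0.83). LHCA1 had 1610 and 5037 TPM in OE and 6168 and 1822 TPM in WT. LHCA2 and LHCA3 spanned 1163 to 3430 TPM with the same libraries high. The linkers behaved otherwise in OE. LHCA5 had 127 and 110 TPM in OE, against 142 and 53.7 TPM in WT (log2 fold change 0.43, SE 0.49). LHCA6 had 46.1 and 29.6 TPM in OE and 109 and 32.6 TPM in WT (log2 fold change -0.68, SE 0.54). For both, OE replicate 1 was the higher OE library, and a single library, WT replicate 1, was the highest of the 4.

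The minor antenna proteins LHCB4, LHCB5 and LHCB6 link the trimers to the photosystem II core, and PSBS senses lumen acidity and sets off the dissipation of excess light. LHCB5 was the most abundant of this group, at 1440 and 2754 TPM in OE, against 3693 and 1427 TPM in WT (log2 fold change -0.20, SE 0.74). LHCB6 had 1127 and 1617 TPM in OE and 2679 and 873 TPM in WT. LHCB4.1 and LHCB4.2 ran from 759 to 2292 TPM. PSBS had 963 and 788 TPM in OE, against 1367 and 487 TPM in WT, so its OE libraries lay in the opposite order to those of LHCB5. LHCB4.3, the rare isoform, had 10.9 and 6.28 TPM in OE, against 15.4 and 11.9 TPM in WT. That was the only member whose genotypes did not overlap, at a log2 fold change of -0.64 (SE 0.39) that did not pass the threshold (limma, Benjamini-Hochberg adjusted p = 1.0).

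Among the nuclear subunits of photosystem I, OE replicate 2 was above OE replicate 1, and WT replicate 1 above WT replicate 2, for 12 of 12 genes, with median log2 differences (replicate 2 minus 1) of 0.97 in OE and -1.20 in WT. PSAD and PSAE form the stromal docking site for ferredoxin. PSAD1 had 2236 and 3224 TPM in OE, against 4359 and 2266 TPM in WT (log2 fold change -0.23, SE 0.73). PSAD2 had 755 and 1569 TPM in OE and 2194 and 1185 TPM in WT, and PSAE2 had 469 and 1100 TPM in OE and 859 and 478 TPM in WT. PSAF, which docks plastocyanin on the lumen side, had 888 and 1975 TPM in OE and 3554 and 1610 TPM in WT. Its log2 fold change of -0.85 (SE 0.71) was the lowest of all members (limma, Benjamini-Hochberg adjusted p = 1.0), and it stayed below 0 whichever library was left out, from -1.43 to -0.28. PSAN, another lumenal subunit, had 401 and 741 TPM in OE, against 1473 and 528 TPM in WT (log2 fold change -0.69, SE 0.64). PSAO, which takes part in docking the mobile antenna, was the highest of this group by fold change at 0.20 (SE 0.73), with 1193 and 2522 TPM in OE and 2580 and 887 TPM in WT. PSAL and PSAH, at the same docking side, and PSAK and PSAG, at the antenna side, lay between 329 and 3645 TPM.

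**Figure D5:**
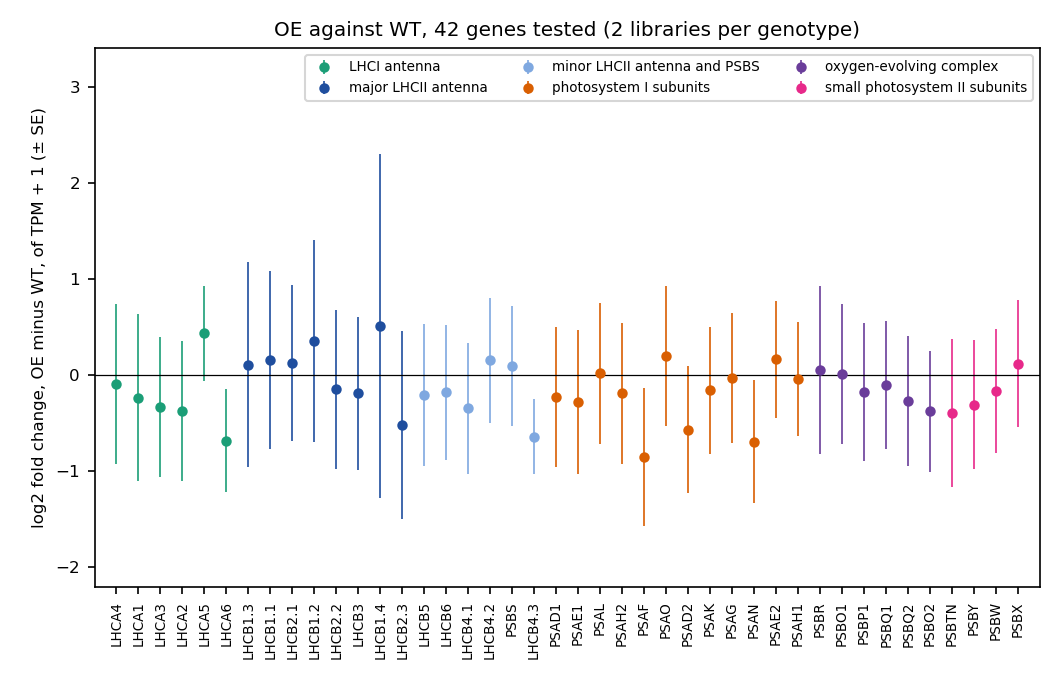
Log2 fold change of TPM + 1, OE minus WT (y axis, bars ± SE from limma), for the 42 tested genes in order of role and level. Values run from -0.85 for PSAF to 0.51 for LHCB1.4, and the bars of most genes cross 0.

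The oxygen-evolving complex is formed by PSBO, which stabilises the manganese cluster, and by PSBP, PSBQ and PSBR at its lumen face. PSBR, the second most abundant of the 43 genes, had 5907 and 10451 TPM in OE, against 8789 and 6497 TPM in WT (log2 fold change 0.056, SE 0.87). Its WT libraries differed 1.35-fold, compared with 2.91-fold for PSBO2. PSBO1 had 2300 and 3787 TPM in OE and 3941 and 2170 TPM in WT. PSBO2, the lesser copy, had 747 and 742 TPM in OE, against 1651 and 568 TPM in WT (log2 fold change -0.38, SE 0.63). The OE libraries were thus alike for PSBO2 and differed 1.65-fold for PSBO1. The same contrast was seen for PSBQ, where PSBQ1 had 877 and 933 TPM in OE and 1800 and 526 TPM in WT, while PSBQ2 had 528 and 1233 TPM in OE and 1572 and 603 TPM in WT. PSBP1 had 1937 and 3035 TPM in OE, against 3848 and 1946 TPM in WT.

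Of the small subunits of photosystem II, PSBTN had 2005 and 2603 TPM in OE, against 5314 and 1696 TPM in WT (log2 fold change -0.39, SE 0.77). PSBX had 940 and 1278 TPM in OE and 1753 and 580 TPM in WT (log2 fold change 0.12, SE 0.66). PSBY had 1688 and 1777 TPM in OE, against 3055 and 1506 TPM in WT, and PSBW had 745 and 1602 TPM in OE, against 1650 and 909 TPM in WT. The group's OE libraries differed least by median, 0.41 on the log2 scale, while its median WT difference of -1.31 was close to the -1.36 of all members.

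The 5 genes outside the common order of the OE libraries were LHCA5, LHCA6, LHCB4.3, PSBS and PSBO2. Across the 42 genes the OE and WT differences had a Pearson correlation of -0.68 and a Spearman correlation of -0.26, and without LHCB1.4 Pearson's r was -0.33 over 41 genes. All points share the same 4 libraries and close copies can share reads, so this is a description. Over all 20010 features the same correlation was 0.033.

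The promoters of all 43 genes were searched on both strands for the G-box CACGTG, the I-box GATAAG, the element AATATCT known from clock-controlled genes and the GCC-box GCCGCC, the element that ERF proteins bind. The window was the 250 bases before each gene start in RefSeq TAIR10.1, and none of the 4 motifs contains another. A G-box was found in 9 of 43 member promoters (20.9%), against 6.49% of 27443 promoters of protein-coding genes, and an I-box in 9 (20.9%), against 12.3%. The clock element was in 5 (11.6%), against 10.0%, and the GCC-box in 2, LHCA6 and PSAE2 (4.65%), against 1.87%. A match is a description of the letters and not a binding site. The promoters of LHCB1.4 and LHCB2.3, which had the largest differences between WT libraries, and of LHCA4, the most abundant LHCI gene, are given in the direction of transcription with motif matches in capitals.
LHCB1.4 (chr2:14524357-14524606, plus strand): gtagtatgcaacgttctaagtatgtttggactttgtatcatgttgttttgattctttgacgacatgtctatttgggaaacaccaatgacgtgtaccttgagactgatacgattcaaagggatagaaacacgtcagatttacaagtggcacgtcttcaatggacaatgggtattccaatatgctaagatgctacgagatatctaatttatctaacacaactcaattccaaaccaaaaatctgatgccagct
LHCB2.3 (chr3:10255656-10255905, plus strand): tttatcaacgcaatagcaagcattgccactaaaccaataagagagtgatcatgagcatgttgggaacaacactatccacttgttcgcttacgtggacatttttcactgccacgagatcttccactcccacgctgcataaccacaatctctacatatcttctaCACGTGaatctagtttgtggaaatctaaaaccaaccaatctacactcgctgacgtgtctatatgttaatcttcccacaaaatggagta
LHCA4 (chr3:17495034-17495283, minus strand): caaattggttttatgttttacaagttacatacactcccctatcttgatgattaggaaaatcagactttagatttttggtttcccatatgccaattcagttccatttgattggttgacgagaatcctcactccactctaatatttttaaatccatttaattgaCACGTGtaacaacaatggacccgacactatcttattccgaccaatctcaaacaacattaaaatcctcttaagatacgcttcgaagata
LHCB2.3 and LHCA4 each hold a G-box that begins 88 bases before the gene start, and the LHCB1.4 window holds none of the 4 motifs. Members with a G-box had a median difference (replicate 2 minus 1) of 1.06 in OE and -1.62 in WT over 9 genes, and members without one 0.99 in OE and -1.33 in WT over 33 genes.

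Other genes of photosynthesis mostly shared the order of the WT libraries, while their order in the OE libraries varied by group. Of 17 genes of electron transport and ATP synthase, 10 were higher in OE replicate 2 than in OE replicate 1, against 36.9% of all features. Of the same 17, 16 were higher in WT replicate 1 than in WT replicate 2, against 28.5% of all features. Their median log2 difference (replicate 2 minus 1) was 0.061 in OE and -1.01 in WT, and 0 of 17 passed the test between genotypes. FD2, the main leaf ferredoxin, had 533 and 257 TPM in OE, against 1804 and 406 TPM in WT, and PGRL1A, of cyclic electron flow, had 270 and 282 TPM in OE and 277 and 132 TPM in WT. Among 19 genes of photosystem assembly, repair and regulation the medians were 0.024 in OE and -0.53 in WT, with 0 of 19 called. The phosphatase TAP38, which acts on LHCII in state transitions, had 77.5 and 110 TPM in OE and 61.2 and 54.4 TPM in WT. HCF173, needed for psbA translation, had 275 and 251 TPM in OE, against 215 and 139 TPM in WT. For 10 of the 19 OE replicate 2 was above OE replicate 1, against 36.9% of all features. For 17 WT replicate 1 was above WT replicate 2, against 28.5%. Of the 8 relatives of antenna proteins 0 had OE replicate 2 above OE replicate 1, against 36.9% of all features. OE replicate 1 was thus not the lower library for them, as it was for most photosystem genes but not for most features. For 7 of the 8 WT replicate 1 was above WT replicate 2, against 28.5% of all features. None of the 8 was called, and the medians were -0.43 in OE and -1.02 in WT. OHP2 had 401 and 401 TPM in OE and 342 and 305 TPM in WT, and SEP1 had 157 and 133 TPM in OE and 182 and 77.0 TPM in WT. The light stress protein ELIP2, named after its values were seen, had 172 and 14.3 TPM in OE and 91.8 and 14.5 TPM in WT.

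GLK1 and GLK2, known activators of these genes, were lower in each OE library than in each WT library. GLK1 had 32.4 and 35.6 TPM in OE, against 84.8 and 65.2 TPM in WT, with a log2 fold change of -1.11 (SE 0.37) that did not pass (limma, Benjamini-Hochberg adjusted p = 0.583). GLK2 had 95.3 and 130 TPM in OE, against 182 and 194 TPM in WT, at -0.75 (SE 0.42; limma, Benjamini-Hochberg adjusted p = 1.0). GNC, a GATA factor of greening, had 8.84 and 13.1 TPM in OE, against 23.3 and 33.9 TPM in WT. SIG1, a sigma factor for chloroplast transcription, had 50.3 and 36.8 TPM in OE and 130 and 85.8 TPM in WT. Of 15 regulators 0 passed the test, and for 7 each OE library was lower than each WT library, an order shown by 14.2% of all features. For 2, PIF3 and PIF5, each OE library was higher than each WT library, an order shown by 13.7%. PIF3 had 61.0 and 44.9 TPM in OE and 15.5 and 43.9 TPM in WT, and PIF5 had 135 and 168 TPM in OE and 113 and 79.1 TPM in WT. Both encode phytochrome-interacting factors, which repress greening genes in the dark, and were named after their values were seen. For PIF3 the nearest libraries were almost level, at 44.9 TPM in OE replicate 2 and 43.9 TPM in WT replicate 2. The other members of this family on the list did not share the order. PIF1 was lower in each OE library, with 32.45 and 32.19 TPM in OE and 33.74 and 42.49 TPM in WT. PIF4 overlapped, with 9.62 and 107.94 TPM in OE and 65.45 and 42.64 TPM in WT.

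Markers of leaf state also differed, some between the libraries of a genotype and some between the genotypes. The mesophyll genes RBCS1A, CA1 and RCA summed to 18681 and 15934 TPM in OE, against 30305 and 12812 TPM in WT. By this sum WT replicate 1 was high there too and OE replicate 2 was not. RBCS1A, at 13701 and 11396 TPM in OE, made up most of the sum, and RCA had 4112 and 3442 TPM in OE. CA1 had the other order, with 867 and 1096 TPM in OE. Dark and starvation markers (ASN1, DIN10, SEN1, DIN2) summed to 1586 and 2833 TPM in OE, against 84.1 and 1800 TPM in WT. ASN1, an asparagine synthetase, had 49.1 and 398 TPM in OE and 0.38 and 43 TPM in WT, and DIN10 had 548 and 871 TPM in OE and 64.4 and 219 TPM in WT. SEN1, the largest part of each OE sum, had 972 and 1560 TPM in OE and 18.7 and 1531 TPM in WT. DIN2 had the other order in OE, with 17.3 and 3.77 TPM in OE and 0.61 and 7.67 TPM in WT. Of the libraries high for the photosystem genes, WT replicate 1 thus had the lowest sum of these markers and OE replicate 2 the highest. Both OE libraries lay above both WT libraries for 2 of the 4 genes, ASN1 and DIN10, against 13.7% of all features. In the test 0 of 4 passed. Senescence markers summed to 1087 and 1127 TPM in OE and 175 and 532 TPM in WT, with SAG12 at 0 throughout. SAG21 made up most of each sum, with 976 and 1049 TPM in OE and 157 and 427 TPM in WT, and its genotypes were apart. ORE1, a senescence regulator, overlapped, with 108 and 73.3 TPM in OE and 15.9 and 94.9 TPM in WT. Log2 fold changes were above 0 for SAG21 and ORE1 and below 0 for SAG13 and WRKY53. SAG13 had 0.43 and 0 TPM in OE and 0.09 and 6.21 TPM in WT. WRKY53 had 2.11 and 3.88 TPM in OE and 2.59 and 3.9 TPM in WT. Among clock genes, LHY had 236 and 64.2 TPM in OE, against 178 and 180 TPM in WT, and PRR7 had 22.8 and 150 TPM in OE and 39.9 and 68 TPM in WT (both named after their values were seen). PRR9 had 2.44 and 11 TPM in OE and 15.1 and 15.6 TPM in WT, and TOC1 had 28.6 and 36.7 TPM in OE and 14.8 and 24.5 TPM in WT. Of 9 clock genes both OE libraries lay above both WT libraries for 3, against 13.7% of all features. They lay below both for 2, against 14.2%, and 0 of the 9 passed the test. Ribosomal RNA features held 2.14% and 0.174% of TPM in OE, against 1.24% and 1.81% in WT. The part of these signals in the photosystem result was not tested.

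Markers of other cell types and organs were read in the same libraries. Guard cell markers summed to 75.8 and 70.3 TPM in OE and 77.6 and 95.1 TPM in WT, epidermal markers to 738 and 733 TPM in OE and 781 and 740 TPM in WT, phloem markers to 92.9 and 131 TPM in OE and 94.6 and 96.4 TPM in WT, and xylem markers to 42 and 36.4 TPM in OE and 50 and 52.5 TPM in WT. Root-type markers were all above 0 and summed to 2854 and 3817 TPM in OE and 3197 and 4190 TPM in WT. PYK10, at 2785 to 4116 TPM, made up nearly all of these sums. CASP1 had 29.3 to 47.7 TPM, LRX1 18.3 to 37.8 TPM and COBL9 6.51 to 7.66 TPM. Such markers are not those of a leaf, and why they were present was not tested. Seed storage markers summed to 0.51 and 3.74 TPM in OE, against 43 and 49.5 TPM in WT. CRU3, a seed storage protein, had 0.04 and 0.21 TPM in OE, against 10.0 and 25.2 TPM in WT. It was lower in OE by 3.92 on the log2 scale (SE 0.48; limma, Benjamini-Hochberg adjusted p = 0.0182), the 1 gene of the 16 other lists that passed. CRU3 reached the filter of 1 TPM only through the WT libraries. Its OE values lie near 0, so the size of the fold change depends on the 1 TPM added before the logarithm. The call was not stable, as 0 features passed with no filter, quantile normalization or median-ratio scaling. Flower markers summed to at most 1.53 TPM in a library, and of the shoot meristem markers WUS and CLV3 were listed at 0 and STM had 1.79 to 5.06 TPM.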

How the data were processed

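The deposited values were TPM in 1 table, made by the authors. The submitters' processing notes name RSEM, HISAT and fastp without saying what each did. Genome build, annotation and strand setting were not given in the sources used here. A column numbered 3 holds WT replicate 2, as the label for that sample says. Columns with the authors' mean TPM were not used.

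Values were log2(TPM + 1). Features whose mean reached 1 TPM were fitted with limma 3.58.1 (R 4.3.3), using a trended prior variance and a genotype term alone. Two-sided p-values were adjusted by Benjamini-Hochberg over 20010 features. The test was checked on simulated data. An exact two-sided permutation test of 2 against 2 libraries cannot go below 0.333. Overlaps, coding identity and promoters came from RefSeq TAIR10.1 by locus tag, which matched all 43 genes, with Biopython 1.88 for alignment. Figures used matplotlib 3.10.9 in Python 3.11.15.

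The members and the 16 other lists, from general knowledge of 108 genes, were chosen with earlier results of these data known. Given in full were, per role group, the member of highest mean and those of highest and lowest log2 fold change, and the 5 with the smallest p. Of each other list of pathway genes the called genes or the 2 of smallest p are named, and GLK1, GLK2 and ERF4 always. Other members are named freely. Alternatives were pseudocounts of 0.1 and 5, filters at 0 and 5 TPM, median-ratio scaling, quantile normalization, organelle features removed, the replicate number as a block, a prior without trend, a robust prior, and each library left out. Removal of ribosomal RNA features was chosen after seeing the data.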

Additional observations from a re-analysis of the deposited data

How the results depend on the processing

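No member of the 42 tested was called by limma under any alternative run. The number of features called moved from 18 to 0 with no filter, quantile normalization and median-ratio scaling, where 1072, 1114 and 1129 had an unadjusted p under 0.05, and to 63 with a filter at 5 TPM, 108 with a robust prior and 338 with the replicate number as a block. The labels name no pairing by replicate number, and samples with the same number did not deviate together (r = 0.033 across features). Single pairs of libraries cannot show whether a shared number marks a shared batch. The block changed no call of a member and left the members' median at -0.17. With 1 library left out, a lone library is assumed to vary like the other genotype, and 0 to 293 features were called. The members' median then ran from -0.87 to 0.52, and with every other alternative except quantile normalization (-0.0060) it stayed between -0.17 and -0.16.

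Fold changes under each alternative were followed for the 17 members named by rule. With quantile normalization those of LHCA4 (0.19), LHCB5 (0.046) and PSAD1 (0.012) changed sign, and over all 42 the number above 0 was 21, against 14 without it. With 1 library left out the log2 fold change ran from -0.89 to 0.70 for LHCA4, -0.26 to 1.13 for LHCA5, -1.54 to 0.18 for LHCA6, -0.83 to 1.05 for LHCB1.3, -2.71 to 3.73 for LHCB1.4, -2.40 to 1.37 for LHCB2.3, -0.38 to 0.69 for LHCB4.2, -0.89 to 0.48 for LHCB5, -0.70 to 0.24 for PSAD1, -1.43 to 0.048 for PSAN, -0.57 to 0.97 for PSAO, -1.15 to 0.39 for PSBO2, -0.36 to 0.47 for PSBR, -1.22 to 0.43 for PSBTN and -0.68 to 0.92 for PSBX. LHCB4.3 and PSAF kept their sign in each of these fits. The cause was not tested. With 2 libraries per genotype and no read numbers, differences of the size seen here could not be separated from the spread.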
